A study of Triticum monococcum with 54 samples.

Results

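Whole grain of einkorn (Triticum monococcum ssp. monococcum, a diploid wheat) was compared at 400 °Cd after anthesis between plants given N without S and plants given neither. Degree days (°Cd) are the temperature sum after anthesis, the opening of the flowers. N+S- plants received a nutrient solution with 6 mM N and 0 mM S, and N-S- plants received one with 0 mM N and 0 mM S, so both groups lacked S and differed in N. All plants belonged to 1 accession, had been given demineralized water only until anthesis, and were on their treatments from 200 °Cd on. The comparison takes the 3 libraries of each group that carry these labels, 6 of the 54 libraries of the series, all from sequencing lane 4. It covers the 18308 genes that are in the tables of both treatments as used here, of the 32047 in the complete tables. Grain of the same stage with S is set beside them, 3 libraries of plants given 6 mM N with 2 mM S (N+S+) and, for 8649 genes, 3 libraries of plants given 0.5 mM N with the same S (N-S+).

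A cereal grain fills by laying down starch and storage proteins in the endosperm, and transcripts of a small number of storage protein genes make up much of its RNA. Some of these proteins are rich in the S-containing amino acids cysteine and methionine and others poor in them. When wheat is fed N but little S, S-poor storage proteins are known to accumulate at the expense of S-rich ones. The deposited tables identify genes as TmLoc numbers with a length and no name, so none of the genes below could be assigned to a protein class or a role, and marker genes of embryo, aleurone or endosperm could not be checked.

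Counts over the 18308 genes totalled 839848 to 925632 in the N+S- libraries and 803951 to 946534 in the N-S- libraries. A gene had to pass a filter on low counts to be tested, which 5214 did. Across the tested genes, replicate libraries of a group correlated at r = 0.930 to 0.942 on the log2 scale. Libraries of different groups correlated at r = 0.910 to 0.939, a range that overlaps with the first. Levels are normalized CPM, counts scaled to library size over these genes. Fold changes are log2 of N+S- over N-S- with their standard errors. A gene was called at a Benjamini-Hochberg adjusted p under 0.05 in edgeR's quasi-likelihood test. The labels name the replicates as biological without saying which plants they came from, so p-values measure the spread between these samples. In whole grain, fewer cells of a type and less RNA per cell cannot be told apart.

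Relative to N-S- grain, 21 genes were lower and 17 were higher with N alone (N+S-). That is 38 calls, or 0.729% of the genes tested, with 0.403% called lower and 0.326% called higher. At an unadjusted p under 0.05 there were 447 genes. The lower genes were abundant, with a median mean level of 1689 CPM, against 103 CPM for the higher genes and 44.0 CPM for all tested genes. The median change was 1.57 on the log2 scale in size for lower genes and 1.26 for higher genes. Over all tested genes the median log2 fold change was -0.0047. A change of at least 2-fold was measured for 15 of the 21 lower and 14 of the 17 higher genes. In all 38 genes the 3 libraries of one group lay apart from the 3 of the other, as they did in 13.7% of all tested genes. The lower genes were also short, with a median length of 600 bases, against 1684 bases for the higher genes and 2150.5 bases for all tested genes.

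**Figure D1:**
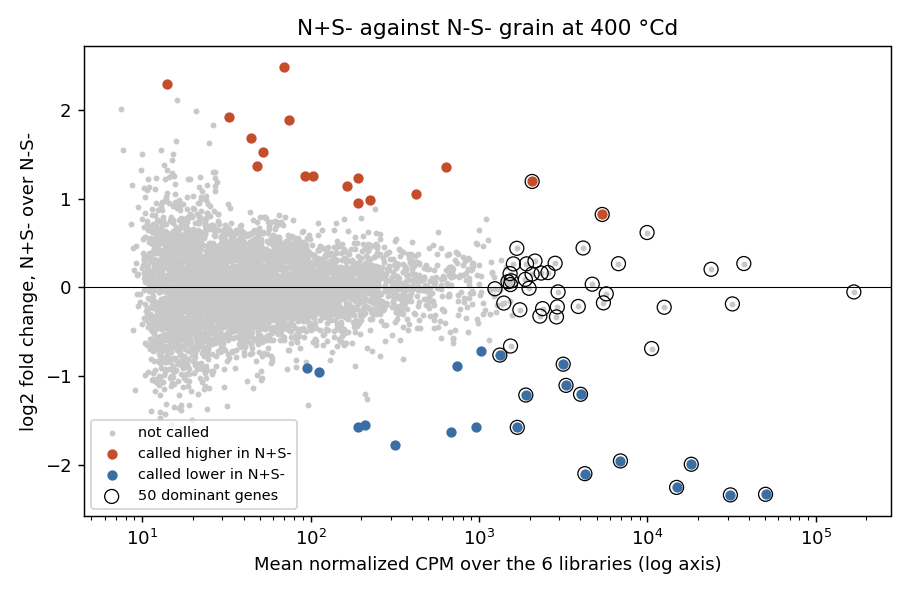
Each point is a tested gene, with its mean normalized level in CPM over the 6 libraries on the log-scaled horizontal axis and its log2 fold change, N+S- over N-S-, on the vertical axis. Genes called higher or lower at 400 °Cd are coloured, and open circles mark the 50 dominant genes. The lower calls sit mostly to the right, at a median of 1689 CPM, and the higher calls to the left of them, at a median of 103 CPM.

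The largest decreases were in 3 very abundant genes that each stood about 5-fold lower in N+S- grain. TmLoc001192 (552 bases) was at 18933, 18054 and 13052 CPM in N+S- grain, against 86171, 95704 and 70153 CPM in N-S- grain (-2.33 ± 0.20 on the log2 scale, edgeR adjusted p = 1.06e-07). TmLoc025590 (600 bases) was at 10137, 12792 and 7900 CPM in N+S- grain, against 45275, 68757 and 41971 CPM in N-S- grain (-2.34 ± 0.22, edgeR adjusted p = 1.45e-07). TmLoc001996 (558 bases) was at 5308, 5672 and 4525 CPM in N+S- grain, against 21181, 34026 and 18811 CPM in N-S- grain (-2.25 ± 0.21, edgeR adjusted p = 1.45e-07). The lowest N-S- library of each gene was above its highest N+S- library by a wide gap, 3.71-fold for TmLoc001192, 3.28-fold for TmLoc025590 and 3.32-fold for TmLoc001996. Scaled to gene length, TmLoc001192 was at 30217 CPM per kilobase in N+S- grain and 152191 in N-S- grain, and TmLoc025590 at 17127 in N+S- grain and 86668 in N-S- grain.

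Further abundant genes fell by about 4-fold. TmLoc005084 (394 bases) was at 7892, 7305 and 6760 CPM in N+S- grain, against 26086, 42896 and 18481 CPM in N-S- grain (-1.99 ± 0.23, edgeR adjusted p = 4.60e-06). TmLoc017122 (380 bases) was at 3090, 3112 and 2309 CPM in N+S- grain, against 10876, 12514 and 9645 CPM in N-S- grain (-1.96 ± 0.18, edgeR adjusted p = 1.45e-07). TmLoc001563 (903 bases) was at 1672, 1769 and 1388 CPM in N+S- grain, against 5543, 10434 and 4735 CPM in N-S- grain (-2.10 ± 0.23, edgeR adjusted p = 2.29e-06). The N+S- libraries of these genes lay close together, while replicate 2 was the highest of the N-S- libraries in each. Replicate 2 was the highest N-S- library in 15 of the 21 lower genes, and replicate 3 was the lowest N+S- library in 17 of them. Those libraries' part in the result was not tested beyond leaving each of them out, after which the 6 genes named so far were still called.

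Several lower genes that were less abundant than these fell by about 3-fold. TmLoc014481 (702 bases) was at 953, 1045 and 544 CPM in N+S- grain, against 2111, 3108 and 2377 CPM in N-S- grain (-1.58 ± 0.21, edgeR adjusted p = 5.05e-05). TmLoc009002 (281 bases) was at 422, 394 and 188 CPM in N+S- grain, against 834, 1283 and 993 CPM in N-S- grain (-1.63 ± 0.23, edgeR adjusted p = 8.81e-05). TmLoc016312 (1650 bases) was at 152, 204 and 75.6 CPM in N+S- grain, against 478, 664 and 345 CPM in N-S- grain (-1.78 ± 0.26, edgeR adjusted p = 0.000134). In all of these N+S- replicate 3 was the lowest of the 6 libraries, and the groups stayed apart without it. TmLoc006891 and TmLoc016174 (632 and 345 bases) changed by -1.57 ± 0.22 and -1.55 ± 0.24, with edgeR adjusted p = 8.81e-05 and 0.000352. The 6 N+S- values of these 2 genes ran from 66.7 to 138 CPM and the 6 N-S- values from 220 to 476 CPM.

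TmLoc000251 (344 bases) rested on 1 library. It was at 553, 603 and 284 CPM in N+S- grain, against 673, 643 and 2971 CPM in N-S- grain (-1.57 ± 0.38, edgeR adjusted p = 0.0470). Only N-S- replicate 3 was high, and the lowest N-S- library lay just above the highest N+S- library. Without N-S- replicate 3 the change was -0.46 (edgeR adjusted p = 0.806). The call was also lost without N+S- replicate 1 (adjusted p = 0.0526) or replicate 3 (adjusted p = 0.435), and in DESeq2 (adjusted p = 0.738). It was lost as well in a fit to the 24 libraries of both treatments at 300 to 600 °Cd (adjusted p = 0.361), and with the replicate number as a block.

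**Figure D2:**
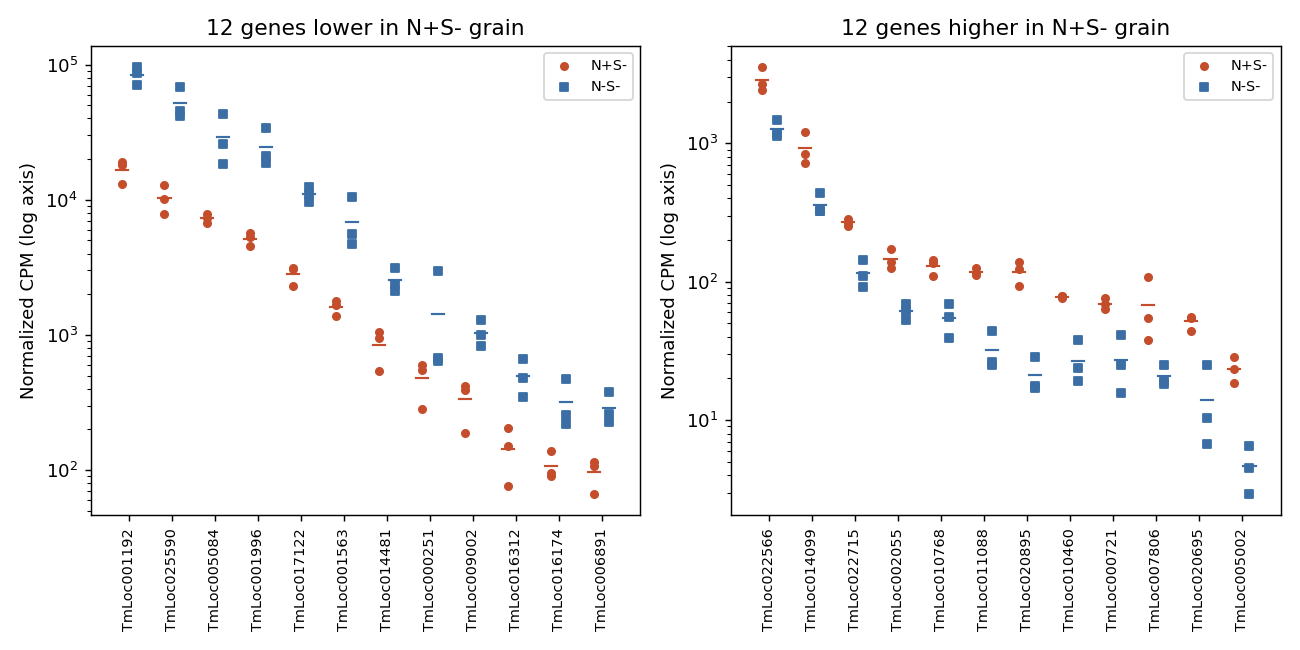
Normalized levels in CPM (log axes) of the 12 called genes with the largest decrease and the 12 with the largest increase, at 400 °Cd. Points are single libraries, N+S- left of N-S- for each gene, and short lines are group means. The 3 N+S- libraries lie below the 3 N-S- libraries in the left panel and above them in the right panel, and the TmLoc000251 mean in N-S- grain is set by 1 high library.

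Dominance was ranked only among the genes covered by the comparison, by mean CPM in the 3 N+S+ libraries of 400 °Cd. Among the 50 dominant genes, the highest in this ranking, 12 were lower, 2 were higher and 36 were not called. That is 24% lower and 4% higher, against 0.403% and 0.326% over all tested genes. For 13 of the 21 lower genes the N+S+ mean was above both N+S- and N-S- means, so a ranking by N+S+ grain favours them. The median log2 fold change of the 50 genes was -0.06, against -0.0047 over all tested genes. In the next 100 genes by abundance (ranks 51 to 150) the 3 called genes were lower. Among 3214 tested genes ranked below 2000 the 9 called genes were higher. The ranking follows N+S+ grain, so a gene low there ranks low whatever its level in the 6 libraries. TmLoc014099 averaged 639 CPM over the 6 libraries but ranked 2141, with 55.5 CPM in N+S+ grain scaled together with them. The median standard error was 0.38 below rank 2000 and 0.17 among the 50 dominant genes. A change of a given size was thus easier to call in an abundant gene.

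The lower dominant genes not yet named changed less than those above, which include TmLoc014481. TmLoc011982 (930 bases) was at 2693, 3035 and 1551 CPM in N+S- grain, against 5480, 5864 and 5450 CPM in N-S- grain (-1.21 ± 0.20, edgeR adjusted p = 0.000785). TmLoc025755 (432 bases) was at 957, 1500 and 971 CPM in N+S- grain, against 2369, 3397 and 2195 CPM in N-S- grain (-1.21 ± 0.20, edgeR adjusted p = 0.000708). Both were called under each alternative in which they could be fitted. TmLoc017571 (450 bases) was at 2998, 1788 and 1477 CPM in N+S- grain, against 3512, 4410 and 5552 CPM in N-S- grain (-1.11 ± 0.22, edgeR adjusted p = 0.00704). Its groups lay closer, and the call was lost without N+S- replicate 3 (-0.91, adjusted p = 0.102) or N-S- replicate 3 (-0.93, adjusted p = 0.0508), in DESeq2 (adjusted p = 0.170) and in the 24-library fit (adjusted p = 0.217). TmLoc020297 and TmLoc012677 changed by -0.87 ± 0.16 and -0.76 ± 0.16 (edgeR adjusted p = 0.00329 and 0.0165). TmLoc020297 was not called without N+S- replicate 1 (adjusted p = 0.0650). TmLoc012677 was not called without N+S- replicate 1 (0.0737), N+S- replicate 3 (0.165) or N-S- replicate 1 (0.170). With the replicate number as a block in the fit, neither TmLoc012677 nor TmLoc017571 was called.

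The share of all counts held by the 50 dominant genes was 47.8%, 46.1% and 45.0% in N+S- libraries, against 53.7%, 58.2% and 51.4% in N-S- libraries. The groups did not overlap, and the means were 46.3% ± 1.41 and 54.4% ± 3.49 (SD, n = 3 each). The difference was -8.12 percentage points, with a two-sided exact permutation p of 0.1, which is the smallest that 3 against 3 libraries can give. In N+S+ grain the share was 59.9%, 54.2% and 56.6%. The 12 dominant genes called lower, which the calls had selected, held 5.72% ± 0.95 of the counts in N+S- grain, 20.4% ± 2.98 in N-S- grain and 27.5% ± 4.28 in N+S+ grain. TmLoc001192 alone held 1.78% ± 0.33 in N+S- grain and 7.54% ± 0.73 in N-S- grain. The 36 dominant genes that were not called held 39.6% ± 1.16 in N+S- grain and 33.5% ± 0.58 in N-S- grain. Their part of these counts was thus the larger in N+S- grain. Within a library the shares of these counts sum to 100%, and a smaller share for some genes gives a larger one for others. The shared genes held 59.8% to 61.5% of all counts in the N-S- libraries, so shares of the complete N-S- tables would be smaller.

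**Figure D3:**
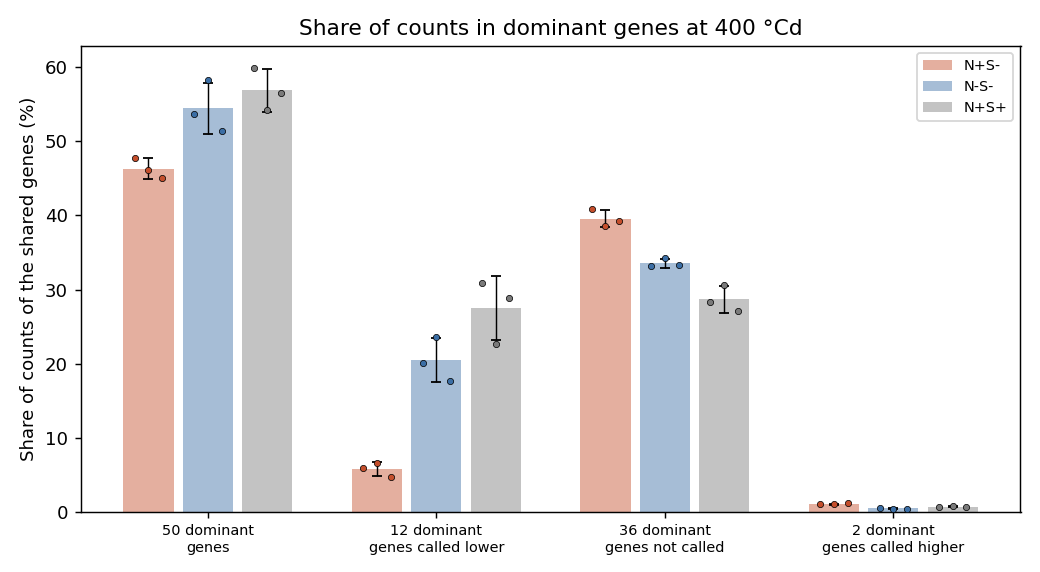
Percent of all counts of the 18308 genes held by the 50 dominant genes and by their called and uncalled members, in N+S-, N-S- and N+S+ grain at 400 °Cd. Points are libraries, bars are means and error bars are SDs (n = 3 each). The share of the 50 genes was 46.3% in N+S- grain and 54.4% in N-S- grain, and that of the 12 lower genes was 5.72% in N+S- grain and 20.4% in N-S- grain.

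Not every abundant gene differed. TmLoc019089 (225 bases), chosen for its abundance after its values were seen, had the highest level per length and stood at 182877, 162293 and 150780 CPM in N+S- grain, against 159297, 197396 and 157682 CPM in N-S- grain (-0.05 ± 0.19, edgeR adjusted p = 0.967). TmLoc012286 (2395 bases) was at 45821, 33165 and 43595 CPM in N+S- grain, against 33363, 36772 and 31700 CPM in N-S- grain (0.27 ± 0.18, edgeR adjusted p = 0.731). The libraries of the groups overlapped in both genes.

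Among dominant genes 2 were higher in N+S- grain. TmLoc022566 (732 bases) was at 2677, 2427 and 3535 CPM in N+S- grain, against 1191, 1472 and 1118 CPM in N-S- grain (1.19 ± 0.18, edgeR adjusted p = 0.000227). It was called under each alternative except the 24-library fit (adjusted p = 0.107). TmLoc020624 (4641 bases) was at 7095, 6608 and 6971 CPM in N+S- grain, against 4456, 3786 and 3464 CPM in N-S- grain (0.82 ± 0.17, edgeR adjusted p = 0.00901). Its groups lay apart, but the call was lost without N+S- replicate 1 (adjusted p = 0.0599) or N-S- replicate 3 (0.0717), and in the 24-library fit (0.472).

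The largest increases were in genes of low to medium abundance. TmLoc020895 (1051 bases) was at 123, 93.5 and 138 CPM in N+S- grain, against 16.9, 17.6 and 28.6 CPM in N-S- grain (2.48 ± 0.27, edgeR adjusted p = 2.79e-06). TmLoc011088 (9344 bases) was at 125, 115 and 112 CPM in N+S- grain, against 24.9, 26.4 and 44.3 CPM in N-S- grain (1.88 ± 0.25, edgeR adjusted p = 5.06e-05). TmLoc010460 (1981 bases) was at 79.2, 75.8 and 78.9 CPM in N+S- grain, against 23.7, 19.1 and 37.8 CPM in N-S- grain (1.53 ± 0.28, edgeR adjusted p = 0.00292). The N+S- libraries of the last 2 genes lay within a narrow range, and in all 3 genes N-S- replicate 3 was the highest of its group. TmLoc014099 (1130 bases), the most abundant of these genes, was at 830, 714 and 1210 CPM in N+S- grain, against 324, 322 and 434 CPM in N-S- grain (1.35 ± 0.19, edgeR adjusted p = 0.000134). TmLoc022715 (968 bases) was at 254, 265 and 285 CPM in N+S- grain, against 91.5, 144 and 109 CPM in N-S- grain (1.23 ± 0.19, edgeR adjusted p = 0.000329). All 5 were called under each alternative that was fitted.

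TmLoc002055 and TmLoc010768 (3482 and 4980 bases) rose by 1.25 ± 0.21 and 1.26 ± 0.23, with edgeR adjusted p = 0.00107 and 0.00284. Their N+S- values ran from 109 to 173 CPM and their N-S- values from 39.1 to 69.0 CPM. TmLoc010768 was not called in the 24-library fit (adjusted p = 0.137).

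The calls of 4 other higher genes were lost when libraries were left out. TmLoc007806 (2566 bases) was at 37.9, 55.1 and 109 CPM in N+S- grain, against 24.9, 19.1 and 18.2 CPM in N-S- grain (1.68 ± 0.36, edgeR adjusted p = 0.0142), and was not called without N+S- replicate 3 (1.15, adjusted p = 0.337), N-S- replicate 1 (1.84, 0.0756) or N-S- replicate 3 (1.59, 0.0756). TmLoc020695 (599 bases) was at 55.1, 44.3 and 55.6 CPM in N+S- grain, against 6.78, 25.0 and 10.4 CPM in N-S- grain (1.92 ± 0.39, edgeR adjusted p = 0.00883), and was not called without N+S- replicate 3 (1.86, adjusted p = 0.0617), N-S- replicate 1 (1.56, 0.137) or N-S- replicate 3 (1.76, 0.0573), nor in the 24-library fit (0.137). In the first of these genes 1 N+S- library was high, and in the second 1 N-S- library was. TmLoc000721 (384 bases) was at 68.9, 63.9 and 75.6 CPM in N+S- grain, against 24.9, 41.1 and 15.6 CPM in N-S- grain (1.37 ± 0.30, edgeR adjusted p = 0.0228). Leaving out N+S- replicate 1 (1.37, adjusted p = 0.0524) or 3 (1.30, 0.132), or N-S- replicate 1 (1.31, 0.193) or 3 (1.09, 0.165), ended that call, and so did the fits to 9 libraries (0.234) and 24 libraries (0.299). TmLoc005002 (1273 bases) had 25, 19 and 21 counts in N+S- grain and 4, 2 and 5 counts in N-S- grain (2.29 ± 0.53, edgeR adjusted p = 0.0369), and leaving out any of the 6 libraries ended the call (2.07 to 2.57, adjusted p 0.0615 to 0.214), as did the fits to 9 libraries (0.177) and 24 libraries (0.299). The calls of TmLoc007806, TmLoc000721 and TmLoc005002 were also lost with the replicate number as a block. With any of the 6 libraries left out, the log2 fold change of each of these 4 genes was at least 1.09. In all, 13 of the 21 lower and 7 of the 17 higher genes were called under each alternative that gave them a value.

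The other 8 called genes were 4 lower and 4 higher ones. TmLoc025701, TmLoc021869, TmLoc022679 and TmLoc011776 were lower by -0.95 to -0.72 on the log2 scale. TmLoc000101, TmLoc019984, TmLoc010679 and TmLoc003151 were higher by 0.95 to 1.14. Of these 8, TmLoc003151 kept its call under each alternative. TmLoc010712 and TmLoc010469, named earlier for the same treatments averaged over stages, did not pass the filter. TmLoc010712 had 6, 5 and 7 counts in N+S- grain and 0, 0 and 3 in N-S- grain. TmLoc010469 had 6, 9 and 9 counts in N+S- grain and 14, 3 and 3 in N-S- grain, so its groups overlapped.

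Most lower genes were among those at least 4-fold higher in N-S- grain at 300 than at 100 °Cd. In N-S- grain at 300 against 100 °Cd, 57.8% of tested genes were called, 27.4% higher and 30.4% lower, and 685 of the shared genes were higher by 4-fold or more at 300 °Cd. Of the 507 of these that were tested here, which make up 9.72% of the 5214 genes, 19 were lower and 3 were higher in N+S- grain at 400 °Cd. Of all 5214 genes 0.403% were called lower and 0.326% higher. At an unadjusted p under 0.05 in edgeR, 64 of the 507 were lower and 45 higher, against 228 lower and 219 higher of all 5214. Their median log2 fold change was -0.03, against -0.0047 for all tested genes. Of the 718 genes lower by 4-fold or more at 300 °Cd, 96 were tested here. Neither edgeR nor DESeq2 called any of them (0 calls each). As edgeR called 0.729% of all 5214 genes, few calls could be awaited among 96. At an unadjusted p under 0.05 in edgeR there were 12 of the 96, 9 lower and 3 higher, against 447 of all 5214. Their median was -0.05. The lower genes that are not in the first list are TmLoc025701 and TmLoc021869.

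The lower genes came on at different times. On plain CPM, 9 of them were already above 1000 CPM in N-S- grain at 200 °Cd, when treatments began. TmLoc001192 stood at 959, 23422 and 64552 plain CPM at 100, 200 and 300 °Cd, and TmLoc025590 at 908, 31166 and 48325. Another 6 were still under 10 plain CPM at 200 °Cd, among them TmLoc009002, TmLoc014481, TmLoc006891, TmLoc016174 and TmLoc017571. Early and late genes were thus both among those lower at 400 °Cd.

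On a scale common to 300 to 600 °Cd, TmLoc017571 averaged 9.0, 2151, 9336 and 12046 CPM in N+S- grain at 300, 400, 500 and 600 °Cd, and 25.8, 4647, 17578 and 31336 CPM in N-S- grain. TmLoc016312 took the opposite course, with 1796, 148, 28.9 and 9.5 CPM in N+S- grain and 1798, 511, 105 and 16.6 CPM in N-S- grain. TmLoc001192 had its highest mean in N-S- grain at 400 °Cd, with 48062, 17178, 16005 and 18279 CPM in N+S- grain and 62130, 86684, 43915 and 48572 CPM in N-S- grain. TmLoc017571 was thus lower in N+S- grain while its level was climbing and TmLoc016312 while its level was dropping in both treatments. Among higher genes, TmLoc020895 averaged 39.9, 121, 125 and 150 CPM in N+S- grain and 22.4, 21.8, 30.1 and 24.7 CPM in N-S- grain. TmLoc014099 averaged 367.5, 944, 935 and 850 CPM in N+S- grain and 208, 372, 392 and 196 CPM in N-S- grain. In both genes the means of the treatments lay closest together at 300 °Cd. Lanes differ between 300, 400 and 600 °Cd, so steps between stages also carry a change of lane, whose part was not tested.

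**Figure D4:**
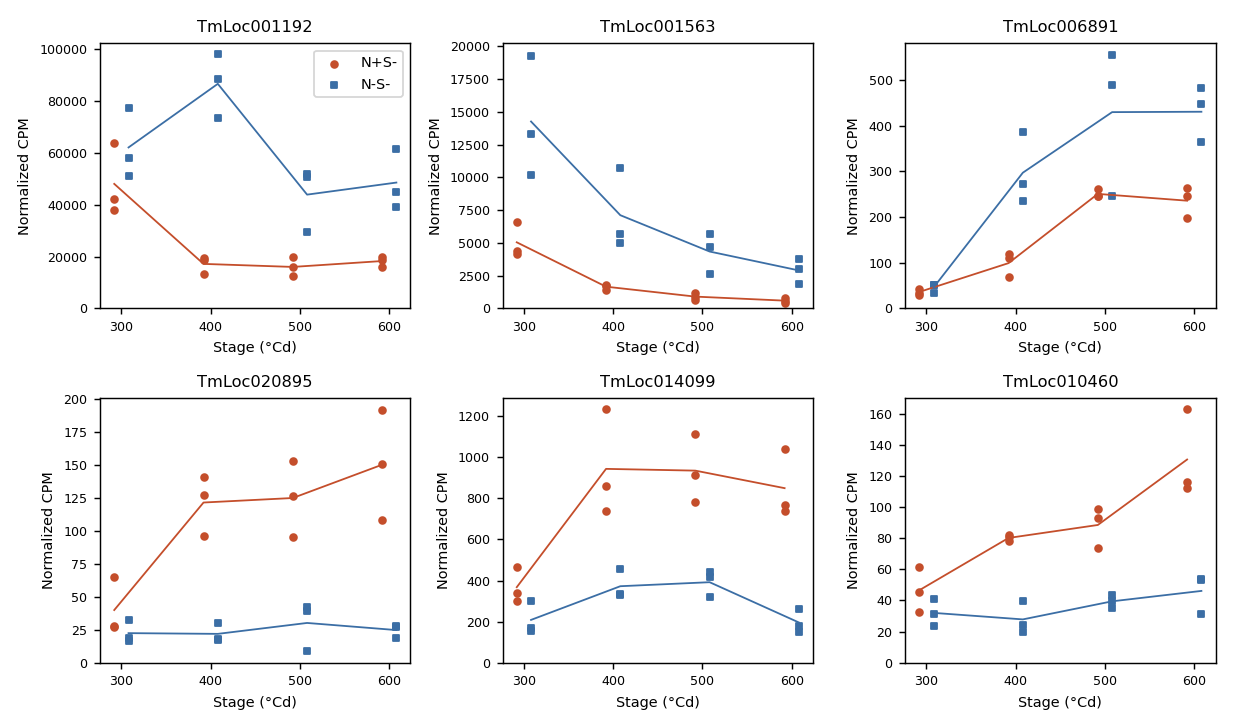
Normalized level in CPM (linear axes from 0) of 6 called genes in N+S- and N-S- grain at 300, 400, 500 and 600 °Cd, on a scale common to the 24 libraries. Points are single libraries and lines join the group means. TmLoc001192 averaged 17178 CPM in N+S- grain and 86684 CPM in N-S- grain at 400 °Cd, and TmLoc020895 averaged 121 CPM in N+S- grain and 21.8 CPM in N-S- grain.

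Each treated stage was also fitted on its own 6 libraries. At 300 °Cd 1 gene was called (0.0145% of 6875), TmLoc001563, at -1.50 (edgeR adjusted p = 0.0210). At 500 °Cd 0.299% of 5691 genes were called lower and 0.0527% higher, and among them were 11 of the 21 lower genes and 1 of the 17 higher genes, TmLoc014099. At 600 °Cd 0.416% of 6244 genes were called lower and 0.769% higher, and among them were 11 of the 21 lower and 9 of the 17 higher genes. The 21 lower genes had a negative fold change at each of 300, 500 and 600 °Cd, and 13 of the 17 higher genes a positive one at all 3. Of all genes tested at 300, 500 and 600 °Cd, 50.4%, 50.1% and 50.7% had a positive one. TmLoc000721 was called the other way at 500 °Cd (-1.95, edgeR adjusted p = 0.0193). Replicates agreed less well in the N-S- libraries of 500 °Cd (r = 0.827 to 0.848) than in the other 7 groups of these stages (0.917 or above).

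Whether the change at 400 °Cd differed from the mean change at 300, 500 and 600 °Cd was tested over the 24 libraries. Of 7431 genes 0 were called by edgeR, with 424 at an unadjusted p under 0.05, and 1 was called by DESeq2. That gene was TmLoc001192, whose decrease at 400 °Cd was larger than the mean of the other stages by -1.25 ± 0.27 in DESeq2 (adjusted p = 0.0292) and by -1.26 ± 0.28 in edgeR (adjusted p = 0.404). A comparison with 300 °Cd alone, chosen after the values at each stage were seen, called 2 genes, 0.0269% of those tested. TmLoc001192 differed by -1.96 ± 0.35 (edgeR adjusted p = 0.0241) and TmLoc025590 by -1.89 ± 0.36 (edgeR adjusted p = 0.0357). At 300 °Cd itself these genes were at -0.37 and -0.45 in N+S- against N-S- grain and were not called.

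**Figure D5:**
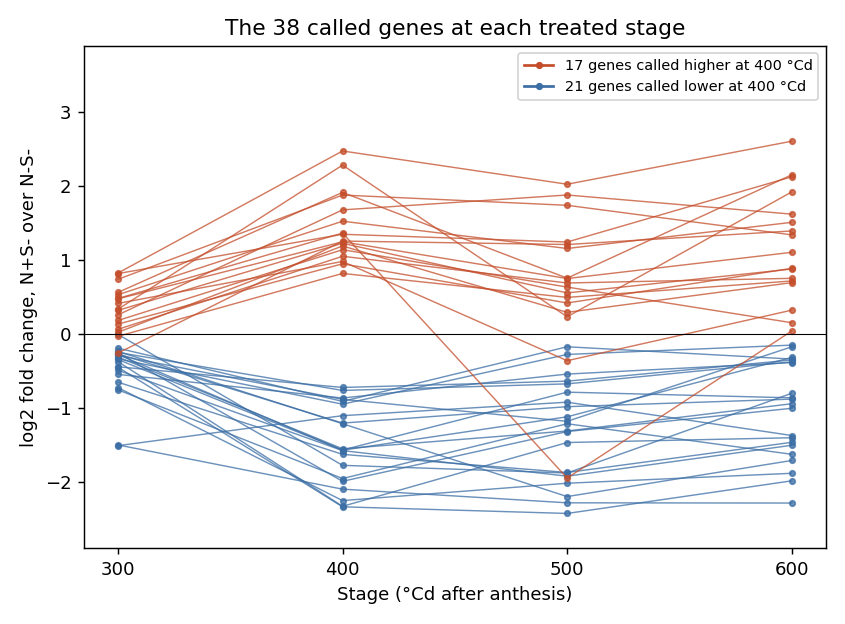
Log2 fold change, N+S- over N-S-, of the 38 called genes at 300, 400, 500 and 600 °Cd, each from a fit to the 6 libraries of that stage, with 1 line per gene. The 21 genes called lower at 400 °Cd lie below 0 at all 4 stages, and 13 of the 17 called higher lie above 0 at all 4.

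The N+S+ libraries show where these genes stood at 400 °Cd with both nutrients supplied. For 13 of the 21 lower genes the N+S+ mean was above both N+S- and N-S- means, and for 8 it was between them. For 7 of the 17 higher genes the N+S+ mean was below both, for 9 between them and for 1, TmLoc003151, above both. The genes had been selected by their N+S- and N-S- levels, which affects where the N+S+ mean can fall. The same placing was not counted over all tested genes. On a scale common to the 9 libraries TmLoc001192 averaged 15826 ± 2965 CPM in N+S-, 79854 ± 12062 CPM in N-S- and 102161 ± 20963 CPM in N+S+ grain (SD, n = 3 each). TmLoc020895 was nearly absent from N+S+ grain, with 1, 0 and 0 counts. TmLoc010460 had 6, 2 and 3 counts there and TmLoc014099 had 48, 75 and 66.

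N+S- grain was then compared with N+S+ grain, which shares the N+S- libraries with the main comparison. There 1.85% of 5665 genes were called, 1.13% lower and 0.724% higher in N+S- grain, among them 16 of the 21 lower and 8 of the 17 higher genes. N-S- against N+S+ grain, which shares the N-S- libraries, had 1.25% of 5517 genes called, 0.707% lower and 0.544% higher. There 4 of the 21 lower genes were lower and 1 was higher with neither nutrient, and of the 16 higher genes tested, 3 were higher and 4 were lower. TmLoc001192, for example, was at -2.68 in N+S- and at -0.36 in N-S- grain, each against N+S+, and TmLoc014099 at 3.97 in N+S- and at 2.62 in N-S- grain.

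The genes that lack of S moved later, with N supplied, were a further list, taken from libraries of 600 °Cd that are not in the comparison at 400 °Cd. For N+S- against N+S+ grain at 600 °Cd 48 genes (0.774% of 6198) were called, 27 higher (0.436%) and 21 lower (0.339%). Of the 27 higher genes 24 were tested at 400 °Cd, where N+S- against N-S- gave 8 higher calls and a median log2 fold change of 0.75. Of the 21 lower genes 20 were tested, with 13 lower calls and a median of -1.38. Neither edgeR nor DESeq2 called a gene of these lists the other way, and at an unadjusted p under 0.05 in edgeR 0 lay the other way as well. Of all 5214 genes tested at 400 °Cd 0.326% were called higher and 0.403% lower, and the median was -0.0047. This list was drawn up with earlier results of these data known.

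The N change without S was also set against the N change with S (N+S+ over N-S+) at 400 °Cd, over the 12 libraries and the 8649 genes in all 4 tables. The low N solution held 0 mM N without S and 0.5 mM N with S, so the difference is not one of S alone. Of 2654 genes tested 10 were called (0.377%), 8 with a more negative (0.301%) and 2 with a more positive (0.0754%) N change without S. Of the 10, 8 were among the 38 genes called above. The tested difference contains the N change without S from the same 6 libraries, so this overlap is partly built in. With S, N+S+ against N-S+ grain gave 0 calls among 2438 genes in edgeR, with 155 at an unadjusted p under 0.05 and 7 called by DESeq2.

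TmLoc001192 had the clearest difference, at -2.31 ± 0.23 (edgeR adjusted p = 1.16e-07). On the scale of the 8649 genes it was at 35626, 33952 and 24945 CPM in N+S- grain and 161577, 181604 and 132870 CPM in N-S- grain, against 246483, 160044 and 207166 CPM in N+S+ and 201885, 208589 and 212245 CPM in N-S+ grain. N+S- grain was below every library of the other groups, and N+S+ grain overlapped with both N-S- and N-S+ grain. TmLoc006891, TmLoc005084 and TmLoc001996 differed by -2.11 ± 0.27, -2.03 ± 0.27 and -1.74 ± 0.27 (edgeR adjusted p = 1.01e-05, 1.83e-05 and 0.000273). TmLoc001996 was not called without replicate 1 of each group (adjusted p = 0.0744). TmLoc009002, TmLoc000263, TmLoc001563 and TmLoc011982 differed by -1.59 to -1.15.

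In the other direction, TmLoc011088 differed by 2.62 ± 0.46 (edgeR adjusted p = 0.00145). It averaged 222 ± 11.5 CPM in N+S- and 60.2 ± 20.5 CPM in N-S- grain, against 22.5 ± 4.05 CPM in N+S+ and 37.4 ± 12.7 CPM in N-S+ grain (SD, n = 3 each). N+S- grain stood above every other group, and the call was lost without replicate 1 (adjusted p = 0.0942). TmLoc001231 differed by 3.37 ± 0.70 (edgeR adjusted p = 0.0117) on few counts. It had 13, 53 and 30 counts in N+S- and 9, 0 and 11 in N-S- grain, with 27, 24 and 10 in N+S+ and 45, 38 and 46 in N-S+ grain. Without replicate 2 of each group the difference was 2.50 (adjusted p = 0.319).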

How the data were processed

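Strand-specific polyadenylated RNA of whole grain was sequenced with paired reads of 125 bases, per the labels' protocols. The authors deposited 1 table per treatment whose columns, per the file headers, hold for each library a raw count and a normalized value, beside the gene's length. The tools named in the submitters' processing notes are BWA 0.7.12-r1039, CASAVA 1.8.4 and edgeR. Which reference was aligned to and how reads were counted is not stated in the sources used here. All tests started from the deposited raw counts, which are whole numbers. The 54 normalized columns, scaled within each table, were not used, and 1 incomplete row was dropped. The other genes of the 2 shorter tables were not analysed here.

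Counts of the 18308 genes shared by the N+S- and N-S- tables were scaled jointly by TMM (a trimmed mean of log ratios) and filtered with filterByExpr in edgeR 4.0.16 (R 4.3.3). The quasi-likelihood fit had 1 mean for each group of the 6 libraries, and Benjamini-Hochberg adjustment ran over all tested genes. Standard errors were taken as the size of the log2 fold change over the root of the F statistic. Levels that set stages or N+S+ grain beside these groups were scaled over the 24, 12 or 9 libraries named, and plain CPM was scaled by the library total alone. No pair of replicates within a group had counts closer than 3.55 times the chi-square expected from sampling. The fits were tested on simulated counts.

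Named genes were the 12 called genes with the highest and the 12 with the lowest log2 fold change (mean of at least 5 CPM, no overlap of groups), every called gene among the 50 dominant genes, 7 genes named earlier for the same treatments, and up to 4 genes per direction in each test of a difference. The 8 remaining called genes and TmLoc019089 were added after their values were seen. The comparison, the lists and the named genes were chosen with earlier results of these data known. Alternatives were DESeq2 size factors, DESeq2 1.42.0, no filter, the replicate number as a block, other sets of libraries or genes, thinning to 803951 counts, and each library left out.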

Additional observations from a re-analysis of the deposited data

Results flagged for a closer look

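A difference between the N change without S and the N change with S at 400 °Cd, past the threshold of edgeR's test of that difference, drew attention to 6 genes. On the log2 scale the difference was 3.37 for TmLoc001231, 2.62 for TmLoc011088, -2.31 for TmLoc001192, -2.11 for TmLoc006891, -2.03 for TmLoc005084 and -1.74 for TmLoc001996. Of these, TmLoc001192, TmLoc006891 and TmLoc005084 kept their call with each replicate left out.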

How the results depend on the processing

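The 38 genes kept their direction under each of the 14 alternatives that gave them a value. The count of calls was 68 (27 higher, 41 lower) without a filter on low counts, 25 (9 and 16) in the fit to the 24 libraries of 300 to 600 °Cd, and 21 (10 and 11) over the genes of all 4 tables, which hold 20 of the 38. It was 27 to 54 with 1 library left out, 39 with DESeq2 size factors, 43 in DESeq2, 39 in the fit to 9 libraries and 40 at equal depth. For the change at 400 °Cd against the mean of the other stages, the count of 0 became 19 without a filter, 1 in DESeq2 and 2 against 300 °Cd alone, and stayed 0 in edgeR with each replicate left out. The 10 differences between the N change without and with S became 20 without a filter, 16 in DESeq2, and 6 to 8 with a replicate left out. The share difference of -8.12 points ran from -9.66 to -6.23 with 1 library left out, and was -8.99 for the 20 and -7.35 for the 100 most abundant genes.

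With the replicate number as a block, 26 genes were called between N+S- and N-S- grain, 1 gene for the stage difference and 13 for the difference by S. Deviations of same-numbered libraries from their group means correlated at -0.045 to -0.016. With 3 libraries a group and no label on it, these values cannot decide whether the numbers pair the samples.

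The tests cover 5214 of 18308 genes, and a gene of few counts needed a larger change to be called. Counts of the 18308 genes were 59.8% to 61.5% of all counts in the N-S- libraries, so shares and CPM refer to these genes only. Only 3 libraries a group were compared, at 1 stage and on 1 lane.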

Other observations

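N-S- replicate 3 held 4 genes at a level at least 3-fold above each of the other 5 libraries, out of 2382 genes that averaged 50 CPM or more, and each of the other 5 libraries held 0 such genes. TmLoc000251, called lower in N+S- grain, was at 2971 CPM in it. TmLoc001267 (147 bases) was at 254 CPM in it, with 59.7, 69.8 and 35.6 CPM in N+S- grain and 83.6 and 80.7 CPM in the other N-S- libraries. TmLoc002803 (262 bases) was at 557 CPM in it, with 147, 157 and 81.2 CPM in N+S- grain and 182 and 147 CPM in the other N-S- libraries. TmLoc022179 (2272 bases) was at 612 CPM in it, with 117, 150 and 116 CPM in N+S- grain and 141 and 163 CPM in the other N-S- libraries. The last 3 genes were not called between N+S- and N-S- grain (edgeR adjusted p = 0.0637 for TmLoc001267, 0.118 for TmLoc002803 and 0.116 for TmLoc022179). All 4 were singled out after their values were seen.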
